A study of Mus musculus with 6 samples.

Results

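Fc receptors bind the constant part of antibodies and pass the signal on to the cell or carry the antibody across it. Activating receptors such as Fcgr1 and Fcgr3 signal through the shared gamma chain Fcer1g, whose cytoplasmic tail carries a tyrosine activation motif, and they are known from macrophages, neutrophils and NK cells. Mature B cells carry another set, with the IgM receptor Fcmr, the low-affinity IgE receptor CD23 (Fcer2a) and the Fc receptor-like proteins. Here 10 such genes, named by their function with earlier results of the same comparison known, were described in mouse splenic B cells. The array annotation gave 15 probe sets for 9 of them, among 18193 genes and 45101 probe sets in all, and Fcrl5 was not analysed here.

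The Crebbp-deleted group (CBPΔ/Δ x EµBcl2, 3 mice) was compared with the Crebbp-floxed group (CBPF/F x EµBcl2, 3 mice). Every mouse carried the EµBcl2 transgene, whose Eµ enhancer drives Bcl2 in B cells, so the floxed samples are Bcl2-transgenic and not plain wild type. The Cre line used for deletion and the ages of the mice are not given in the sources used here. Spleen cells were frozen, thawed and depleted of CD43-bearing cells with beads, and each mouse gave 1 Affymetrix array. All levels below are on the log2 scale, and each difference is the deleted mean minus the floxed mean.

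The targeted gene Crebbp was lower in the deleted samples at all 4 of its probe sets, with log2 differences from -0.97 to -0.50 and no overlap between the groups. Array medians lay between 4.27 and 4.30. B cell markers were bright in both groups: Ms4a1, which encodes CD20, stood at 12.47 ± 0.03 in deleted and 12.64 ± 0.15 in floxed samples, and Cd79b, the Igβ chain, at 12.21 ± 0.03 in deleted and 12.28 ± 0.15 in floxed samples (SD, n = 3 each). Spn, which encodes the depleted marker CD43, had 4.99, 4.76 and 5.25 in deleted and 5.60, 5.10 and 5.33 in floxed samples. Xist and Y-linked genes marked deleted samples 1 and 3 and floxed sample 1 as male and the other 3 as female, so sex was not balanced between the groups.

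The promoter windows below are shown because the genes they precede gave some of the largest differences (Pigr, Fcmr, Fcer2a, Fcgr3) or almost none at the representative probe set (Fcgr1). Each line gives the 250 bases before a transcription start from the RefSeq table of build GRCm38.p6, 5′ to 3′ on the gene's strand. Fcer2a has 3 starts in that table and the one with the most motif matches is printed. Fcgr3 has another start close by, with the window chr1:171059395-171059644, which is not printed. Capitals mark matches, on either strand, to letters bound by known regulators: TGGGAA for RBPJ, the nuclear partner of Notch, GAGGAA for PU.1, TTCNNNGAA for the gamma-activated site, TTC and GAA with any 4 bases between them for STAT6 and TGACG for the core of the cAMP response element.
Pigr, chr1:130826434-130826683, plus strand: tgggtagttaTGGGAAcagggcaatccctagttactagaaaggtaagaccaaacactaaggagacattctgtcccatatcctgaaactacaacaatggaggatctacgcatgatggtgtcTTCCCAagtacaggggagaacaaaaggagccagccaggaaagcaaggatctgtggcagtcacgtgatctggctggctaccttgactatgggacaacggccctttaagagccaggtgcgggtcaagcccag
Fcmr, chr1:130865527-130865776, plus strand: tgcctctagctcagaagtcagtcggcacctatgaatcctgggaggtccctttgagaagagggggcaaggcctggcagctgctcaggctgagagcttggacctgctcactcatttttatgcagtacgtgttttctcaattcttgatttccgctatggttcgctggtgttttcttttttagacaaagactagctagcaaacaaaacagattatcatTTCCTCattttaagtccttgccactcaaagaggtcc
Fcer2a, chr8:3690862-3691111, minus strand: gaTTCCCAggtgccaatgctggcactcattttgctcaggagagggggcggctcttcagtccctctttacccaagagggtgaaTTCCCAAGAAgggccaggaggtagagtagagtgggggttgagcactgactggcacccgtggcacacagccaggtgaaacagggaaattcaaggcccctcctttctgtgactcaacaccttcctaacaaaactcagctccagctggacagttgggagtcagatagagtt
Fcgr3, chr1:171059404-171059653, minus strand: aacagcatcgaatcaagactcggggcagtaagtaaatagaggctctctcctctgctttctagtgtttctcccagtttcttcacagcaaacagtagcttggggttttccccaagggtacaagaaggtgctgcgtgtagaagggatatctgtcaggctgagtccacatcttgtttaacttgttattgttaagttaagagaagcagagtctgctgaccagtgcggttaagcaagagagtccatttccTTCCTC
Fcgr1, chr3:96293970-96294219, minus strand: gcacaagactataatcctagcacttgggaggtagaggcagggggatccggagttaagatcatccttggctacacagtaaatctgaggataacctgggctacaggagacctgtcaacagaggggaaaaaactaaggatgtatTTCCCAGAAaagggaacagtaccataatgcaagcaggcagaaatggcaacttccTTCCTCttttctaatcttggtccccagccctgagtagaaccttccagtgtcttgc

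The Fcer2a window held TTCCCAAGAA, a match to the STAT6 letters at positions -168 to -159 from the start, and the RBPJ letters overlap it on the other strand at -168 to -163. The RBPJ letters also matched at -248 to -243 in that window, and at -240 to -235 and -130 to -125 before Pigr. Since that Fcer2a window was picked by its matches, the others are given too. The window at the 5′ end of the gene, chr8:3694175-3694424, held 0 of the 5 kinds of match. The window chr8:3690391-3690640 held only the RBPJ letters, at -205 to -200. The Fcmr window held only the PU.1 letters, at -36 to -31. The Fcgr3 window held the PU.1 letters at -6 to -1, and the Fcgr1 window held them at -55 to -50 together with TTCCCAGAA, a match to the gamma-activated site at -109 to -101, which the RBPJ letters overlap at -109 to -104. Over 32817 promoter windows of the same length, 21.6% held the RBPJ letters, 23.3% the PU.1 letters, 7.01% the gamma-activated letters, 5.85% the STAT6 letters and 17.7% TGACG. These matches are a description of the sequence and were chosen for display after the expression values were known.

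Among receptors of B cells, Fcmr and Fcer2a stood lowest against the floxed group, Fcrl1 stood slightly lower and Fcrla hardly moved. Fcmr, the receptor for the Fc part of IgM, had log2 intensities of 11.39, 11.17 and 11.26 in the deleted samples and 12.24, 12.09 and 12.04 in the floxed samples. All 3 deleted samples lay below all 3 floxed ones, and the samples within a group spanned far less than the gap. The difference was -0.85 ± 0.10 (SE), or 1.80-fold lower, which ranked 128th from the lowest of 18193 genes.

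Fcer2a, which encodes CD23, a C-type lectin that binds IgE and marks follicular B cells, had 9.96, 10.01 and 9.76 in the deleted samples against 10.78, 11.35 and 10.70 in the floxed samples at probe set 1422122_at. The groups were separate, and floxed sample 2 was the highest of the 6. The difference was -1.03 ± 0.18 (SE), or 2.04-fold lower, ranked 76th from the lowest. Its second probe set, 1451713_a_at, had 8.47, 8.51 and 7.94 in the deleted samples against 9.33, 9.90 and 9.25 in the floxed samples. That set again put floxed sample 2 highest and deleted sample 3 lowest, with a difference of -1.19 ± 0.22 (SE).

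Fcrl1, a B cell surface protein with tyrosine activation motifs, had 10.39, 10.47 and 10.40 in the deleted samples and 10.71, 10.94 and 10.54 in the floxed samples at 1425062_at. The groups did not overlap, but the difference was small, -0.31 ± 0.12 (SE), and it was -0.21 without floxed sample 2. At its dimmer set 1425063_at the difference was of the same size, -0.31 ± 0.38 (SE), while the groups overlapped, with 7.59, 7.998 and 8.46 in the deleted samples and 7.79, 9.19 and 8.01 in the floxed samples.

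Fcrla, an Fc receptor-like protein kept inside the B cell, had 10.71, 10.75 and 10.54 in the deleted samples and 10.82, 10.32 and 10.72 in the floxed samples at 1425802_a_at. The difference was 0.05 ± 0.15 (SE), with a 95% interval from -0.30 to 0.39. Its other sets, 1419907_s_at and 1419908_at, differed by -0.04 ± 0.13 and -0.01 ± 0.15 (SE), and in all 3 sets the groups overlapped.

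**Figure D1:**
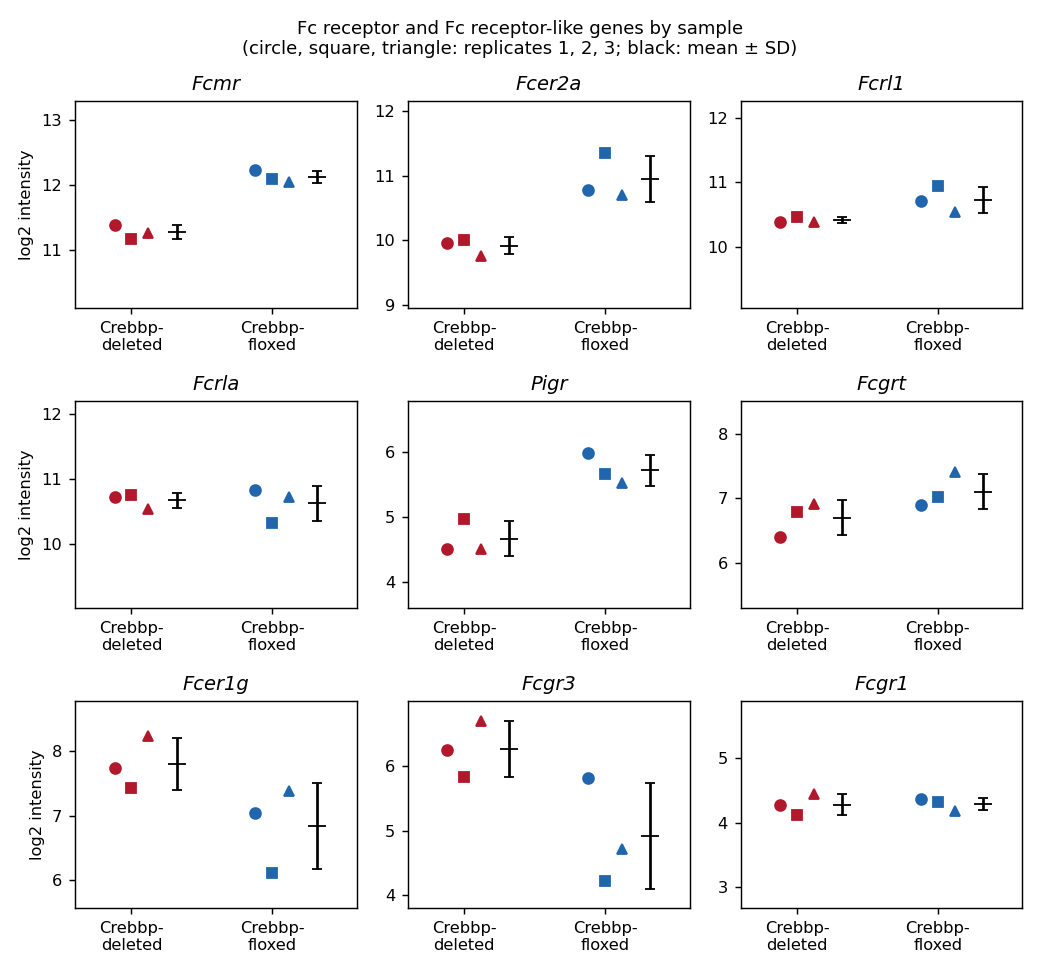
Log2 intensity (vertical axis, 3.2 units tall in every panel) of 9 genes at the probe set with the highest mean, with the 3 Crebbp-deleted samples in red on the left and the 3 Crebbp-floxed samples in blue on the right of each panel. Black marks give the mean and SD. Fcmr, Fcer2a, Fcrl1 and Pigr have every deleted sample below every floxed one, Fcer1g and Fcgr3 have every deleted sample above, and Fcrla, Fcgrt and Fcgr1 overlap.

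Both members that carry antibodies through cells stood lower in deleted samples, Pigr with separate groups and Fcgrt within overlapping groups. Pigr, the receptor that takes polymeric IgA and IgM across epithelia, had 4.50, 4.97 and 4.51 in the deleted samples and 5.99, 5.66 and 5.52 in the floxed samples at 1450060_at. The groups were separate, with deleted sample 2 nearest to the floxed ones. The difference was -1.06 ± 0.17 (SE), or 2.08-fold lower, ranked 66th from the lowest. Its limma adjusted p was 0.0489 in the gene fit and 0.0633 in the probe set fit, and the call was lost in 11 of 15 other settings. The set is not bright, with linear intensities of 22.7, 31.4 and 22.8 in deleted samples and 63.5, 50.5 and 45.8 in floxed samples. With 16 added to each intensity the difference was -0.73 (limma adjusted p = 0.0727).

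The second Pigr set, 1455490_at, had 3.47, 3.95 and 3.55 in the deleted samples and 4.56, 4.19 and 4.36 in the floxed samples. Deleted sample 2 was the highest of its group in both sets, and the difference was -0.71 ± 0.16 (SE). This set is dim: its mean over the 6 samples is under 4.29, where the middle of the array lies, and its fold is uncertain. Of 7 epithelial markers 6 had a positive difference, opposite to Pigr, with a median of 0.11. Most are dim: Cdh1, Krt8, Krt18, Krt19 and Cldn7, named here for their level, had both group means under 4.29. A sign at that level is uncertain. Epcam was the brightest of the 7, at 6.98 in deleted and 5.92 in floxed samples. Limma called 0 of the 7, with 2 at an unadjusted p under 0.05, and their summed intensity was 164.1 to 268.5 in deleted and 113.8 to 165.6 in floxed samples.

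Fcgrt, the neonatal Fc receptor that pairs with beta-2 microglobulin and returns IgG from endosomes, had 6.40, 6.79 and 6.92 in the deleted samples against 6.90, 7.02 and 7.40 in the floxed samples. Deleted sample 3 lay just above floxed sample 1. The difference was -0.40 ± 0.18 (SE), and it was -0.25 without deleted sample 1 or without floxed sample 3. Its partner B2m differed by 0.01 ± 0.09 (SE; limma adjusted p = 0.983).

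The myeloid receptors Fcer1g and Fcgr3 stood higher in deleted samples, and Fcgr1 near the middle of the array scale did not differ at its representative probe set. Fcer1g, the signalling gamma chain, had 7.73, 7.43 and 8.23 in the deleted samples and 7.04, 6.10 and 7.38 in the floxed samples. The groups were separated by little, since deleted sample 2 at 7.43 and floxed sample 3 at 7.38 nearly met. The difference was 0.95 ± 0.34 (SE), or 1.94-fold higher, ranked 224th from the highest, and it was 0.59 without floxed sample 2.

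Fcgr3, the low-affinity activating IgG receptor CD16, had 6.24, 5.84 and 6.70 in the deleted samples and 5.81, 4.22 and 4.72 in the floxed samples. Deleted sample 2 at 5.84 and floxed sample 1 at 5.81 nearly met, and the floxed samples spread widely. The difference was 1.34 ± 0.40 (SE), or 2.53-fold higher, ranked 108th from the highest. Fcgr3 and the inhibitory receptor Fcgr2b are close in sequence, and whether a probe set reads both was not tested.

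Fcgr1, the high-affinity IgG receptor CD64, had 4.28, 4.11 and 4.44 in the deleted samples and 4.37, 4.32 and 4.19 in the floxed samples at 1436625_at, a difference of -0.01 ± 0.11 (SE). At 1417876_at it had 3.62, 3.40 and 4.13 in the deleted samples and 3.55, 3.09 and 3.30 in the floxed samples, a difference of 0.41 ± 0.20 (SE). Both sets lie near or under the median of all probe sets, 4.29, and no detection call was used, so a difference in Fcgr1 may not have been detectable.

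Of the 9 measured members limma called 2, Fcmr and Pigr, both lower, at a Benjamini-Hochberg adjusted p under 0.05. Over all genes it called 0.781%, with 0.236% lower and 0.544% higher. Groups did not overlap in 4 members on the lower side and 2 on the higher side. The same held for 21.2% of the 18193 genes, 10% on the lower and 11.2% on the higher side. Counted by probe set, 1 of 15 was called, that of Fcmr, against 0.411% of all probe sets. Groups were separate at 6 of the 15 on the lower side and 2 on the higher side, against 10.8% lower and 9.03% higher of all probe sets. Since the members were named with these values known, the counts describe them and support nothing further. Without floxed sample 1 limma called 0 members and 0 genes (1990 genes at an unadjusted p under 0.05), and without deleted samples 1, 2 and 3 in turn it called 0 members each time. With sex as a term Fcmr alone was called.

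Macrophage markers moved with Fcer1g and Fcgr3. Of 17 measured genes of the macrophage list all 17 differences were positive, with a median of 1.06 against 0.01 over all genes. The smallest were 0.01 for Cd14, 0.06 for Itgam and 0.09 for Siglec1, and signs at that size are uncertain. Tyrobp, an adaptor outside this list, stood at 8.97 in deleted and 8.86 in floxed samples with overlapping groups. Its difference was 0.11 ± 0.31 (SE). Limma called 0 of the 17, although 9 passed an unadjusted p of 0.05, and 5 had groups that did not overlap. Their summed intensity was 3456, 1787 and 4112 in deleted samples 1, 2 and 3 and 1950, 634.8 and 1075 in floxed samples 1, 2 and 3. Floxed sample 1, the highest of its group in Fcgr3, was also the highest of its group in this sum, and deleted sample 3 was highest and deleted sample 2 lowest of theirs in Fcer1g, Fcgr3 and the sum.

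With each gene centred on its mean of 6 samples and the mean macrophage score subtracted, Fcgr3 stood at 0.12 ± 0.11 in deleted and -0.12 ± 0.17 in floxed samples (SD, n = 3 each), a difference of 0.25 in place of 1.34. Fcer1g treated in the same way stood at -0.07 ± 0.17 in deleted and 0.07 ± 0.57 in floxed samples, a difference of -0.14 in place of 0.95. Fcgr4, a non-member that encodes another activating IgG receptor, had a difference of 0.22 in place of 1.32. Fcgr1 at its dim set 1436625_at, which did not follow the score, stood at -0.55 ± 0.36 in deleted and 0.55 ± 0.64 in floxed samples after the subtraction. That is a difference of -1.11 in place of -0.01. Since this set hardly varied, the value is mostly the score with its sign turned. The other Fcgr1 set, 1417876_at, was not used here, and it put the 6 samples in the same order as the score. The part of macrophages in these values was not tested further, and in bulk samples more cells of a type and more RNA per cell cannot be told apart. The score also differed by sex, being 0.62, 1.03 and 0.16 in the males (deleted 1 and 3, floxed 1) and 0.00, -1.18 and -0.62 in the females (deleted 2, floxed 2 and 3). With sex as a term the difference of Fcgr3 was 1.01 and that of Fcer1g 0.82.

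**Figure D2:**
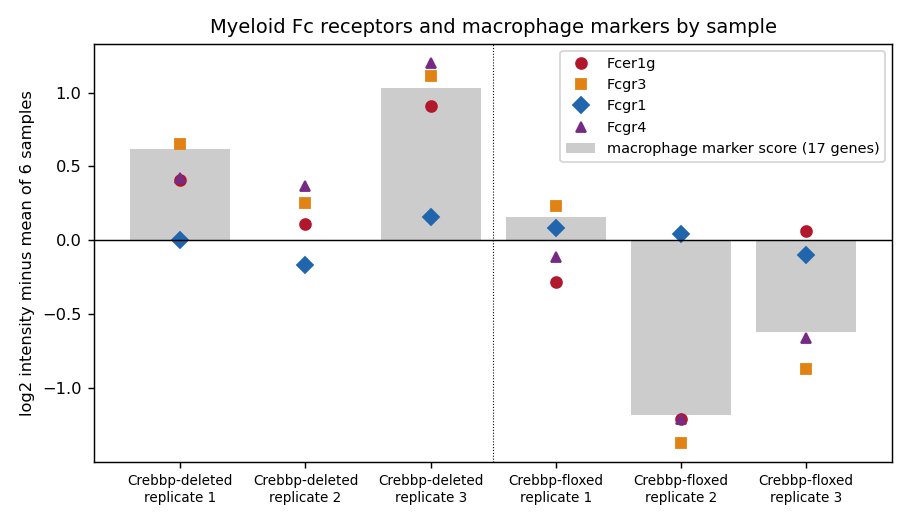
Log2 intensity minus the gene's mean of 6 samples (vertical axis) for Fcer1g, Fcgr3, Fcgr1 and Fcgr4 (points), and the mean of the same quantity over 17 macrophage markers (grey bars), in the 3 Crebbp-deleted samples on the left and the 3 Crebbp-floxed samples on the right. Fcgr3 and Fcgr4 lie within 0.37 of the bar in all samples, and Fcer1g lies 0.68 above it in floxed sample 3. Fcgr1, shown at its dim set 1436625_at only, stays near 0.

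Neutrophil, NK cell and mast cell markers, from other cells that carry these receptors, gave 0 calls by limma in all 3 lists, with 0 genes at an unadjusted p under 0.05. The neutrophil median was 0.24, the NK median -0.05 and the mast cell and basophil median -0.03. Neutrophil markers varied within groups, with summed intensities of 121.5 to 691.6 in deleted and 128.3 to 505.9 in floxed samples.

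Among Fc receptors outside the 10 genes, 8 of 10 were measured and limma called 0 over all genes, with 2 at an unadjusted p under 0.05. Fcgr4 had 5.49, 5.44 and 6.27 in the deleted samples and 4.96, 3.87 and 4.42 in the floxed samples, a difference of 1.32 ± 0.31 (SE; limma adjusted p = 0.117). Fcgr2b, the inhibitory IgG receptor that B cells share with myeloid cells, had 11.55, 11.79 and 11.50 in the deleted samples against 11.17, 11.05 and 11.31 in the floxed samples, a difference of 0.44 ± 0.12 (SE; limma adjusted p = 0.151). In both genes all deleted samples lay above all floxed ones. Fcer1a and Ms4a2, the ligand-binding and beta chains of the mast cell IgE receptor, differed by 0.17 ± 0.10 and -0.20 ± 0.13 (SE), and their group means lay between 2.14 and 2.56, at the dim end of the arrays.

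Antibody genes, the ligands, stood higher where Fcmr and Pigr stood lower. Of 4 measured immunoglobulin and J chain genes 2 rose, and all 4 stood higher, the list median being 1.95. Jchain joins the polymeric IgM and IgA that Pigr takes across epithelia. It had 12.54, 12.61 and 12.99 in the deleted samples against 11.23, 11.15 and 10.80 in the floxed samples. The difference was 1.65 ± 0.16 (SE, limma adjusted p = 0.0105). Ighm, the heavy chain of the ligand of Fcmr, had 13.89, 13.92 and 14.06 in the deleted samples against 13.35, 13.31 and 13.32 in the floxed samples (0.63 ± 0.09, SE; limma adjusted p = 0.0316). Igha, named after its values were seen, had a difference of 2.45 ± 0.54 (SE; limma adjusted p = 0.0994). Ighm had 11 probe sets, all with a positive difference, from 0.13 to 2.39; the brightest is given here, and the difference was 1.21 with their mean and 2.39 with the most variable one (limma adjusted p = 0.12 and 0.0911). Its call was lost with any 1 of the 6 samples left out (limma adjusted p from 0.0532 to 0.123), with the replicate number as a block (0.0692) and with sex as a term (0.0823). That of Jchain was lost without deleted sample 1 (limma adjusted p = 0.0523) and without floxed sample 1 (0.0553).

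**Figure D3:**
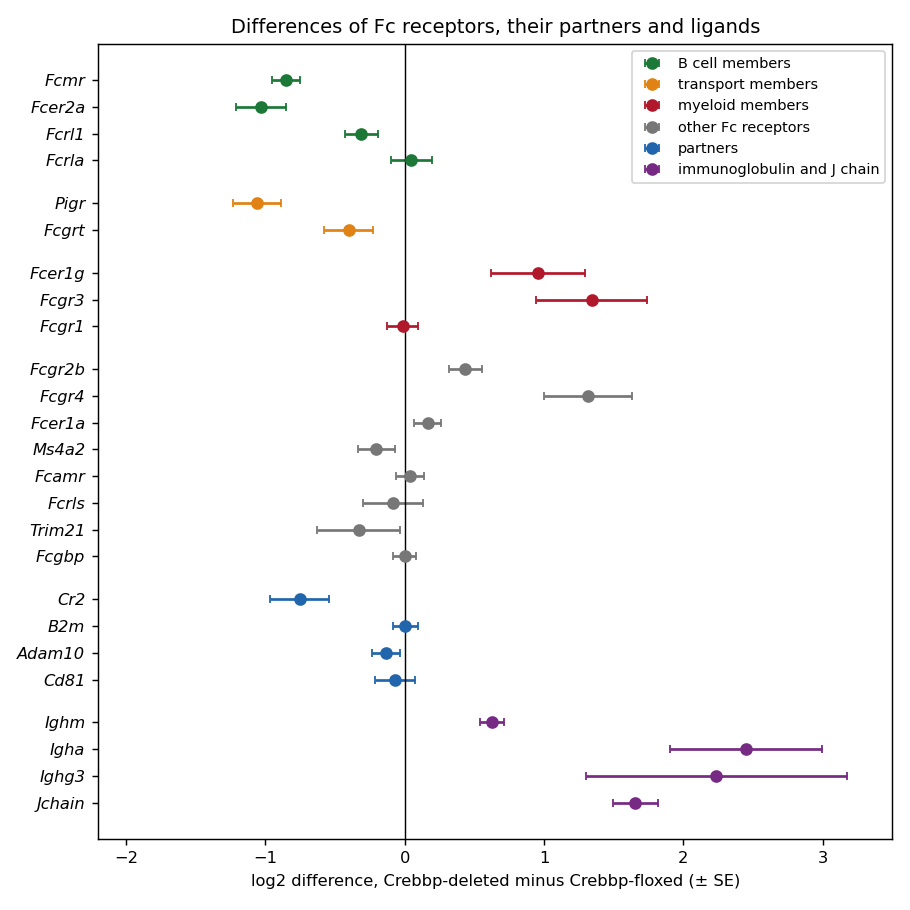
Log2 difference, Crebbp-deleted minus Crebbp-floxed (horizontal axis), with SE bars, for the 9 measured members grouped by role, 8 other Fc receptors, 4 partners and 4 antibody genes. Fcer2a, Pigr and Fcmr lie near -1, Fcer1g, Fcgr3 and Fcgr4 near 1, and the antibody genes lie between 0.63 and 2.45.

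In deleted samples plasma cell markers mostly stood higher and follicular B cell markers lower. Of 12 plasma cell genes 11 stood higher, the list median was 1.03, and limma called 1, which was Jchain, also counted among the antibody genes. Their summed intensity was 16140, 16910 and 24230 in deleted samples 1, 2 and 3 and 10270 to 11310 in floxed samples. Deleted sample 3 was thus well above the rest of its group. All 9 measured genes of the follicular B cell list were lower, with a median of -0.31. That list also holds general B cell markers such as Ms4a1 and Cd79b, so it does not single out follicular cells. Limma called 1 of the 9, Cd79a, the Igα chain, at -1.11 ± 0.10 (SE; limma adjusted p = 0.00928). This call was lost without deleted sample 1 (0.0566) or floxed sample 1 (0.0591). The summed intensity of the 9 was 22050 to 24490 in deleted and 29050 to 31580 in floxed samples. Plasma cells are known to carry CD43, the marker used for the bead depletion, but how many remained after it was not measured. The part of plasma cells and of B cell subsets in the values of the antibody genes, Fcer2a and Fcmr was not tested.

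The partners of Fcer2a gave 0 calls by limma among 4 measured genes, with 1 at an unadjusted p under 0.05. Cr2, the complement receptor CD21 that also binds CD23, had 10.62, 10.04 and 10.79 in the deleted samples against 11.20, 11.49 and 11.01 in the floxed samples, a difference of -0.75 ± 0.21 (SE; limma adjusted p = 0.164). All deleted samples lay below all floxed ones, deleted sample 2 being lowest. Adam10, the protease that sheds CD23, differed by -0.13 ± 0.10 (SE; limma adjusted p = 0.589).

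Few genes that carry receptor signals passed the test. Of 15 measured adaptors and kinases of activating receptors, each read by its representative probe set, 1 fell and 0 rose over all genes, with a list median of -0.04. The gene that fell was Hcst, the adaptor DAP10, with 6.63, 6.87 and 6.75 in the deleted samples against 7.57, 7.39 and 7.54 in the floxed samples (-0.75 ± 0.10, SE; limma adjusted p = 0.0299). Some other probe sets of these genes stood lower. The other set of Pik3ap1 differed by -0.81 ± 0.12 (SE; limma adjusted p = 0.0456, probe set fit), against -0.89 ± 0.66 at its representative. Pik3cd had 0.37 at its representative, but -0.62 to -0.33 at its other sets with separate groups. Another set of Fyn differed by -0.53 and another of Vav1 by -0.34, with separate groups. Other sets of Syk and Lcp2 differed by 0.02 to 0.25 within overlapping groups. Of 6 phosphatases and adaptors of inhibitory receptors 1 rose, Inppl1, the lipid phosphatase SHIP2, with 7.22, 7.23 and 7.15 in the deleted samples against 6.21, 6.38 and 6.61 in the floxed samples (0.80 ± 0.12, SE; limma adjusted p = 0.0376). That list's median was -0.15. The gene calls of Hcst and Inppl1 were lost with the replicate number as a block (limma adjusted p = 0.067 for Hcst and 0.0646 for Inppl1). They were also lost with sex as a term (0.0812 for Hcst and 0.0668 for Inppl1). With 1 sample left out Hcst passed only without floxed sample 2 and Inppl1 only without floxed sample 3, and the other limma adjusted p lay from 0.0518 to 0.131 for Hcst and from 0.0745 to 0.153 for Inppl1. Inpp5d, the SHIP1 phosphatase that Fcgr2b recruits, differed by -0.31 ± 0.15 (SE; limma adjusted p = 0.385; named after its values were seen).

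Position was compared because several members are neighbours. Pigr and Fcmr follow each other directly among the measured genes of chromosome 1, and the gene before Pigr, the long non-coding RNA Gm15848, stood lower as well. Gm15848 had a difference of -1.07 ± 0.24 (SE; limma adjusted p = 0.106; named after its values were seen), beside -1.06 for Pigr and -0.85 for Fcmr. Of the next genes on either side, Fcamr, the Fc receptor for IgA and IgM, differed by 0.04 ± 0.10 and the cytokine gene Il24 by 0.11 ± 0.12 (SE). Both are dim, with group means of 3.56 in deleted and 3.52 in floxed samples for Fcamr and 3.01 in deleted and 2.90 in floxed samples for Il24, so a shift there may not have been detectable. Over the 10 neighbours of the pair limma called 0, and the groups did not overlap in 2, both lower.

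A second cluster on chromosome 1 runs from Fcrla over Fcgr2b, Fcgr4 and Fcgr3 to Fcer1g. In that order the differences were 0.05, 0.44, 1.32, 1.34 and 0.95, while the 6 measured genes between Fcgr3 and Fcer1g, none of them an Fc receptor, differed by -0.17 to 0.25. Fcer2a on chromosome 8 had neighbours with differences between -0.12 and 0.62, all smaller in size than its own -1.03. Beside Fcrl1 on chromosome 3 stood Cd5l, a protein that splenic macrophages secrete, at 1.59 ± 0.45 (SE); it is also on the macrophage list. Over all 68 neighbours limma called 1, Rcn3 beside Fcgrt (0.95 ± 0.12, SE; limma adjusted p = 0.0211), against 0.781% of all genes, and their median difference was 0.001. The call of Rcn3 was lost with sex as a term (limma adjusted p = 0.0689) and without floxed sample 1 or any 1 of the deleted samples (0.0542 to 0.102).

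**Figure D4:**
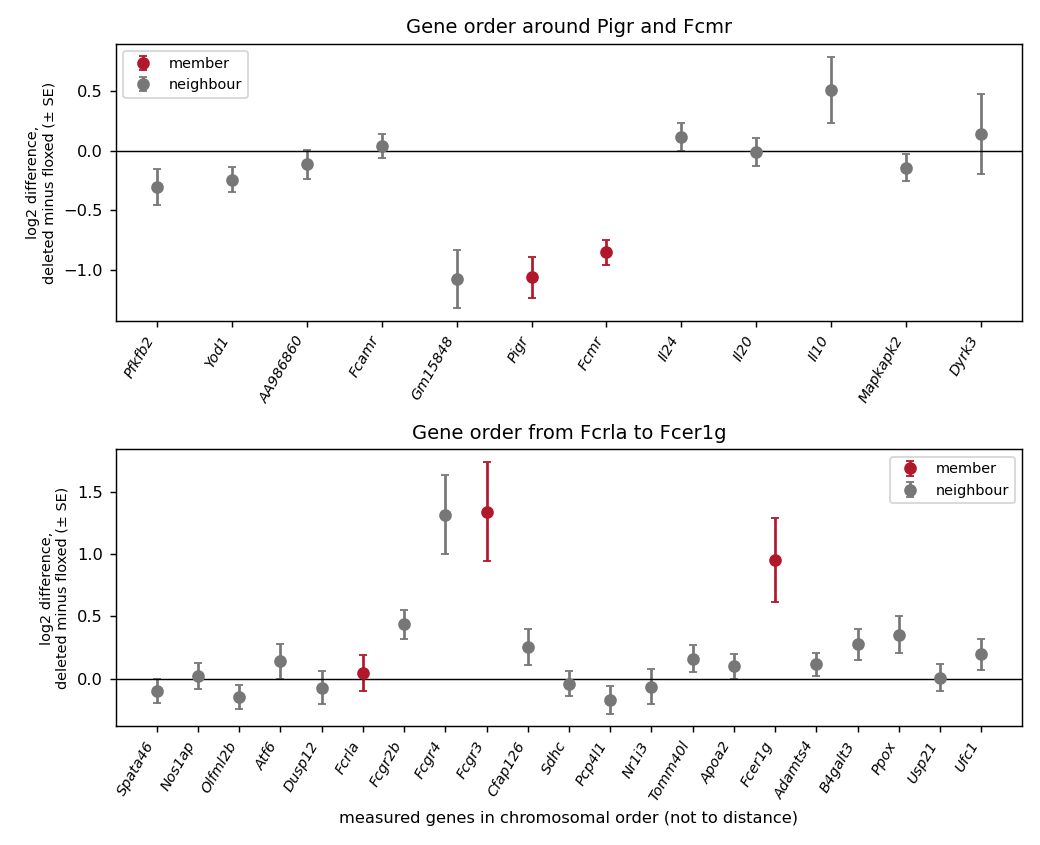
Log2 difference, Crebbp-deleted minus Crebbp-floxed, with SE bars (vertical axis), of measured genes in chromosomal order (horizontal axis, not to distance), around Pigr and Fcmr above and from Fcrla to Fcer1g below. Members are red and neighbours grey. Gm15848, Pigr and Fcmr form a run of 3 low genes, and the high genes in the lower panel are Fcgr4, Fcgr3 and Fcer1g.

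Profiles over the 6 samples were compared by the root mean square distance between values centred on each gene's mean, among 10191 other genes with an established symbol and a mean above 4.29. Nearest to Fcgr3 were Slc11a1, a phagosomal metal transporter of macrophages, at 0.13 log2 units, Fcgr4 at 0.21 and the heme-degrading enzyme Hmox1, also on the macrophage list, at 0.22. Nearest to Fcer1g were the lysosomal protease Ctsl at 0.12, Tmem176a at 0.12 and the adaptor Fyb at 0.15. Nearest to Fcer2a were the kinase Srpk3 at 0.08, Trim12a at 0.11 and Ttll3 at 0.11. Nearest to Pigr were the ubiquitin ligase Rnf122 at 0.12, Gimap5 at 0.15 and Trim5 at 0.16. These distances describe 6 arrays and carry no test.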

How the data were processed

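RNA of splenic B cells from 6 mice was labelled with biotin and measured on Affymetrix arrays, per the labels' protocols. The submitters' processing notes name RMA, with no version given in the sources used here. The deposited intensity values run from 2.96 to 17022 on a linear scale with near-equal array quantiles; they were log2-transformed here and not normalized again. Arrays have no read depth, and their number limits the precision. Probe sets were named through the platform annotation, of which 34958 had 1 symbol, 932 several and 9211 none; 64 control probe sets were left out. Where a gene had several probe sets, the brightest on average stood for it. Genotypes were tested by limma 3.58.1 under R 4.3.3 (lmFit and eBayes, two-sided, no covariate), with Benjamini-Hochberg adjustment over all genes and, separately, over all 45037 probe sets that are not controls. Difference and SE of a representative come from the gene fit and those of other probe sets from the probe set fit. The procedure was tested on simulated data.

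The members and all gene lists were chosen with earlier results of these data known. Genes named are the members, list genes past the adjusted p of 0.05 or otherwise up to 2 of a list with the smallest p, the 3 nearest profiles of the 4 members with the largest differences, and exceptions stated as such. That the 3 samples of a group come from separate mice is per the series' design text. Alternatives covered normalization, 16 added to each intensity, a filter on dim genes, the choice of probe set, limma settings, the replicate number as a block, each sample left out, sex and the threshold. Same-numbered samples were not treated as pairs in the main fit. Their deviations correlated across genes at 0.03, 0.10 and 0.01, against -0.12 to 0.08 for samples of unlike number. Such small values cannot decide whether the samples were paired. With the replicate number as a block the SE of Fcer1g was 0.15 in place of 0.34, and that of Fcgr3 was 0.29 in place of 0.40. Promoter sequences are from RefSeq, build GRCm38.p6, and all 10 members matched; the sources used here give no build for the array. Plots were made using matplotlib 3.10.9 (Python 3.11.15).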

Additional observations from a re-analysis of the deposited data

How the results depend on the processing

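Against 142 genes called, the count was 222 with trended and robust eBayes, 37 with sex as a term, 449 at an adjusted p under 0.1, and 0 to 226 with 1 sample left out (0 without floxed sample 1, with 1990 at an unadjusted p under 0.05). Against 185 probe sets called, the count was 115 with 16 added to each intensity, 301 with trended and robust eBayes, 21 with sex as a term, 626 at an adjusted p under 0.1, 69 with the replicate block, and 0 to 227 with 1 sample left out. Members called numbered 2, and 1 after quantile normalization again, with 16 added, among genes above the median, with the mean of the probe sets or with sex as a term, and 0 to 3 with 1 sample left out. Of the pathway lists 4 genes were called, 2 with the replicate block, 1 with sex as a term and 0 to 3 with 1 sample left out. Of the marker lists 2 were called, 4 with the replicate block, 7 at an adjusted p under 0.1 and 0 to 5 with 1 sample left out. Of the neighbours 1 was called, 0 with sex as a term, 3 at an adjusted p under 0.1 and 0 to 2 with 1 sample left out. The replicate block left 2 members called, Fcmr and Fcer2a, in place of Fcmr and Pigr.

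Fcrl1 stayed between -0.41 and -0.21, Fcgrt between -0.51 and -0.25, Fcmr between -0.91 and -0.80, Fcer2a between -1.19 and -0.83, Pigr between -1.21 and -0.73, Fcer1g between 0.59 and 1.22 and Fcgr3 between 0.97 and 1.79 over 15 settings each. The near-zero differences turned: Fcrla was -0.001 with the mean of its probe sets and -0.106 without floxed sample 2 (-0.106 to 0.149 with 1 sample left out), and Fcgr1 was 0.197 with the mean, 0.406 with the most variable probe set, and 0.001 to 0.069 without deleted sample 2, floxed sample 1 or floxed sample 2 (0.024 without floxed sample 1; -0.094 to 0.069 with 1 sample left out). Fcgr1 and the second Pigr probe set are dim, and no detection call was used. The cause of these changes was not tested.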

Other observations

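Marginal zone and B-1 cells, which express Fcrl5 in mice, could be followed only through other markers. Among 10 marginal zone B cell genes limma called 0, with 3 at an unadjusted p under 0.05 and a median of -0.05. Dtx1, a Notch target, had 9.23, 8.27 and 9.74 in the deleted samples against 10.29, 9.97 and 10.07 in the floxed samples, a difference of -1.03 ± 0.33 (SE; limma adjusted p = 0.215). Its other probe set had 3.51, 3.41 and 3.69 in the deleted samples against 4.22, 4.44 and 4.36 in the floxed samples. The difference there was -0.80 ± 0.11 (SE; limma adjusted p = 0.042 in the probe set fit). That set is dim, so its fold is uncertain. Deleted sample 2 had the lowest summed intensity of that list, 9573, against 11590 and 14600 in deleted samples 1 and 3 and 11210 to 12800 in the floxed samples. Among 8 B-1 cell genes limma called 0, with 3 at an unadjusted p under 0.05, 7 positive differences and a median of 0.48, and the widest difference was that of the scaffold gene Ahnak, 1.93 ± 0.37 (SE; limma adjusted p = 0.0695). These genes were named after their values were seen.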
